A study of Mus musculus with 6 samples.

Results

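Collagens are the trimeric proteins that build fibrils, basement membranes and other parts of the extracellular matrix, and the 44 mouse genes whose symbols follow the pattern of a collagen chain (Col, a type number, a and a chain number) were followed across the libraries of this study. They are 44 of 49585 genes in the count table. The family was chosen with earlier results of these data known, and its members were taken by symbol alone. They were split into 8 types: 11 fibrillar, 6 basement-membrane, 9 FACIT (fibril-associated), 6 beaded-filament, 4 transmembrane, 2 multiplexin, 3 short-chain network and 3 anchoring-fibril or other chains. Cells were AML12, an immortalised mouse hepatocyte line. The first group received a construct with the open reading frame of Zac1, the zinc-finger protein made from the imprinted gene Plagl1 and a regulator of transcription, and the second a construct with that of EGFP, a fluorescent protein that serves as control. RNA was taken 24 h after transfection, with 3 libraries for each group (Zac1 replicates 4, 5 and 6; EGFP replicates 1, 2 and 3). The labels give neither the promoter of the constructs, nor the share of cells that took them up, nor whether the libraries within each group stem from different cultures. The p-values therefore measure only the spread between these libraries, which may be technical.

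Each collagen chain carries a stretch of Gly-X-Y triplets that winds with the same stretch of its partners into a triple helix. Fibrillar types I, II, III, V, XI, XXIV and XXVII polymerise into fibrils, FACIT types sit on fibril surfaces, and type IV forms the sheet of basement membranes. In the liver, stellate cells and fibroblasts are the well-known source of type I and III collagen in scarring, while hepatocytes are known to make type XVIII collagen.

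Total counts were 16104498, 17003713 and 18302538 in Zac1 replicates 4, 5 and 6, against 15145092, 14885966 and 14801240 in EGFP replicates 1, 2 and 3. Plagl1 was read 106033 to 148382 times per library in Zac1 and 39 to 79 times in EGFP, in the order the labels imply. On the second principal component EGFP replicate 1 (10.6) and Zac1 replicate 4 (11.5) stood apart from the other 4 libraries (-8.68 to -2.46), so calls are also given without both. Of 18 hepatocyte markers 10 had at least 1 CPM (reads scaled by depth to the usual per-million unit, on TMM-scaled library sizes) on average, and Apoa2 and Cyp2e1 had 0 reads. Log2 fold changes of the 12 hepatocyte markers tested were above 0 for 8 and below 0 for 4, with a median of 0.06. Ttr (log2 fold change -0.67, edgeR adjusted p = 0.000211) and Hp (-0.69, adjusted p = 0.0303) fell, where 0.668% of all tested genes did. Leaving out single libraries raised the adjusted p of Hp to at most 0.162, which ended its call. Of 17 stellate and fibroblast markers 3 reached 1 CPM, and Lrat, Dcn, Lum, Hand2 and Thy1 had 0 reads in all libraries. Their summed level was 1726 to 1873 CPM in Zac1 and 1637 to 1707 CPM in EGFP, of which Vim and Fbln2 made up nearly all. None of the 3 tested genes of that list (Vim, Fbln2, Postn) passed edgeR, 1 had an unadjusted p under 0.05, DESeq2 and limma called 0, and voom called 1. Of the 14 markers of that list below the minimum for the test, 9 had a read. Summed CPM was higher in Zac1 for 8 of them and lower for 1, where 58.4% of all untested genes with a read were higher. Cygb, a globin known from stellate cells, had 4, 11 and 17 reads in Zac1 and 0 in each EGFP library. Des had 13 reads in all Zac1 libraries and 2 in all EGFP libraries. Pdgfra had 8 in Zac1 and 0 in EGFP, and Pdgfrb 6 in Zac1 and 0 in EGFP. Gfap had 18 in Zac1 and 15 in EGFP, and Tagln, the 1 marker that was lower, 25 in Zac1 and 31 in EGFP. The summed level of these 9 markers was 1.31 to 2.88 CPM in Zac1 and 0.671 to 1.82 CPM in EGFP. Summed levels of 7 bile-duct markers were 760 to 791 CPM in Zac1 and 785 to 825 CPM in EGFP. Those of 9 endothelial markers were 12.9 to 13.9 CPM in Zac1 and 11.8 to 14.0 CPM in EGFP. Without Stab1, the most abundant, the endothelial sum was 1.37 to 2.23 CPM in Zac1 and 0.872 to 1.13 CPM in EGFP. Of 8 endothelial markers below the minimum 7 had a read, and summed CPM was higher in Zac1 for 4 and lower for 3. Those of 8 macrophage and leukocyte markers summed to 45.7 to 52.0 CPM in Zac1 and 49.9 to 54.0 CPM in EGFP. Without Cd14, the most abundant, that sum was 1.88 to 2.55 CPM in Zac1 and 2.16 to 2.48 CPM in EGFP. No gene of these 3 lists was called by edgeR; 1 bile-duct marker was higher and 1 lower by an unadjusted p under 0.05 and by voom, and DESeq2 and limma called 0; Lyve1, Clec4f and Itgam had 0 reads. Of the 6 macrophage and leukocyte markers below the minimum 4 had a read, and summed CPM was higher in Zac1 for 2 and lower for 2. Csf1r, which was higher, had 7, 4 and 19 reads in Zac1 and 0 in each EGFP library. Ptprc and Lyz2, which were lower, had 25 and 0 reads in all Zac1 libraries and 31 and 6 in all EGFP libraries. The part of any such marker level in the results was not tested.

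The collagens that AML12 cells transcribed at high level were those of basement membranes and their borders. Col18a1, Col4a1 and Col4a2 together took 81.4%, 82.9% and 83.7% of all collagen reads in Zac1 replicates 4, 5 and 6, and 81.5%, 81.3% and 81.6% in EGFP replicates 1, 2 and 3. All 44 genes together reached 1060, 1128 and 1178 CPM in the Zac1 libraries, against 1010, 1129 and 1015 CPM in the EGFP libraries. The ranges of the groups overlapped. Collagens took 0.106% to 0.118% of the reads in Zac1 and 0.1% to 0.113% in EGFP.

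Levels of different genes are compared per kilobase (kb) of the longest GENCODE M21 transcript. Col18a1, whose C-terminal fragment is endostatin, was highest, with 68.7 ± 5.06 CPM per kb in Zac1 and 64.9 ± 5.9 CPM per kb in EGFP (SD, n = 3 each here and below). Col4a1 followed at 42.5 ± 2.23 CPM per kb in Zac1 and 39.6 ± 1.57 in EGFP, close to Col4a2 at 40.7 ± 3.09 in Zac1 and 35.8 ± 1.65 in EGFP. These 2 chains form the common type IV trimer, and their levels lay within their spread of each other in Zac1, while in EGFP Col4a1 was above Col4a2 by more than the spread. Next came Col27a1, a fibrillar chain of cartilage, at 9.1 ± 0.368 in Zac1 and 10.03 ± 1.11 in EGFP. The multiplexin Col15a1, a proteoglycan of basement-membrane borders, had 5.2 ± 0.286 CPM per kb in Zac1 and 5.6 ± 0.54 in EGFP. The FACIT gene Col12a1, whose product binds type I fibrils, stood at 3.34 ± 0.0698 in Zac1 and 3.59 ± 0.0894 in EGFP. Between 0.69 and 2.01 CPM per kb in either group lay Col7a1, Col4a5, Col16a1, Col20a1 and Col4a6. Below them were Col9a3, Col11a2, Col1a1, Col2a1 and Col5a2, with 0.0745 to 0.602 CPM per kb. The other 28 genes were below a mean of 10 reads over the 6 libraries.

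**Figure D1:**
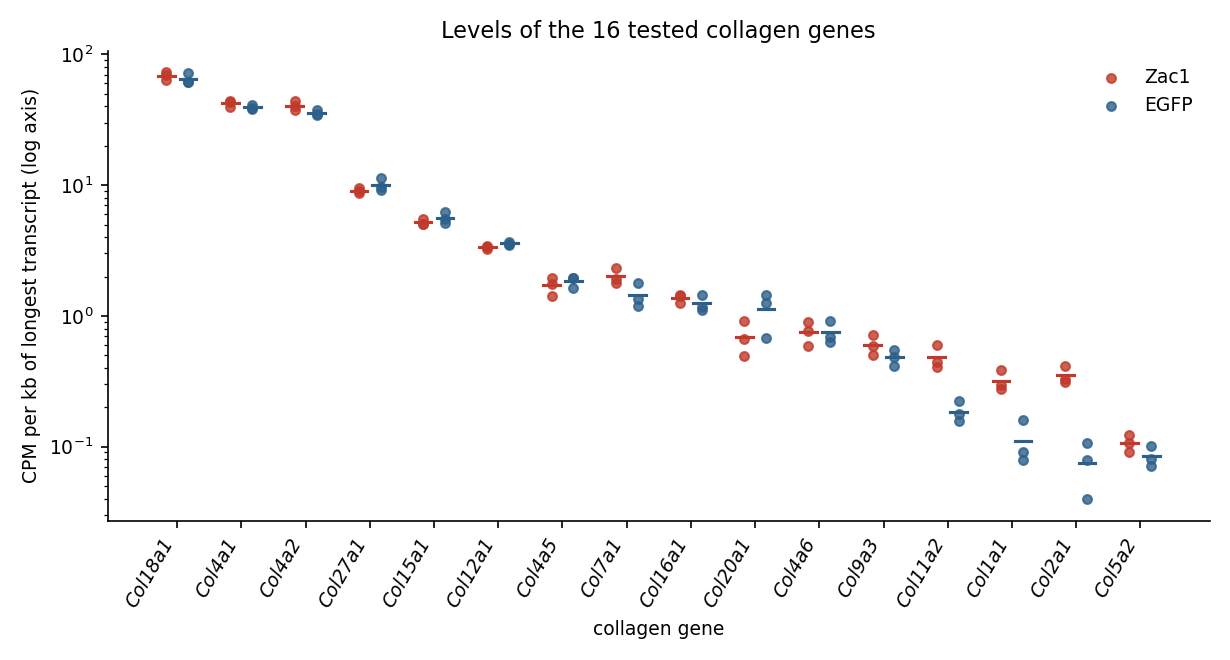
CPM per kb of the longest transcript (log axis) for the 16 collagen genes with a mean of at least 10 reads, with 1 point per library, Zac1 left and EGFP right of each gene, and the mean as a bar. Col18a1, Col4a1 and Col4a2 lead the family in both groups, and the Zac1 points of Col11a2, Col1a1 and Col2a1 lie above all their EGFP points.

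By type, basement-membrane chains made up 47.9% of collagen CPM per kb in Zac1 and 46.7% in EGFP, and multiplexins 41.3% in Zac1 and 42.1% in EGFP. Fibrillar chains made up 5.9% in Zac1 and 6.33% in EGFP. Most of this share was Col27a1, at 9.1 CPM per kb in Zac1 and 10.03 in EGFP. The next fibrillar chain, Col11a2, had 0.484 in Zac1 and 0.185 in EGFP. FACIT chains made up 3.5% in Zac1 and 3.87% in EGFP, and anchoring-fibril and other chains 1.15% in Zac1 and 0.872% in EGFP. The remaining 3 types were minor. Beaded-filament chains made up 0.202% in Zac1 and 0.0444% in EGFP, short-chain network chains 0.0574% in Zac1 and 0.0125% in EGFP, and transmembrane chains 0.0437% in Zac1 and 0.0206% in EGFP. These shares are descriptions without a test.

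**Figure D2:**
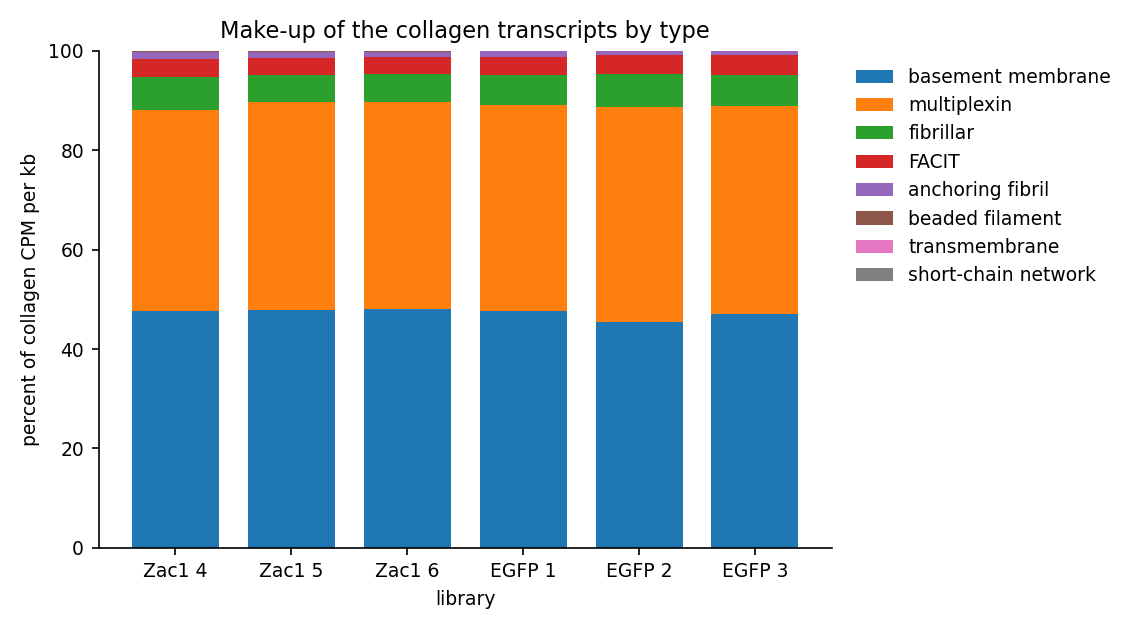
Share of each collagen type in the summed collagen CPM per kb (percent, stacked to 100), with 1 bar per library, the 3 Zac1 libraries left and the 3 EGFP libraries right. Basement-membrane and multiplexin chains fill most of every bar, and fibrillar chains lie between 5.58% and 6.56% in all 6 libraries.

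Of the 44 collagen genes, 16 could be tested for Zac1 minus EGFP with edgeR's quasi-likelihood test, fitted and adjusted (Benjamini-Hochberg) over all 12130 genes with a mean of at least 10 reads. Col2a1, Col11a2 and Col1a1 rose, all of them fibrillar and all low in EGFP, and no collagen gene fell. The test called 3.12% of all tested genes as higher and 0.668% as lower, 3.78% in all. Among the 16 genes, 3 were higher and 0 lower by adjusted p, and 5 higher and 1 lower by an unadjusted p under 0.05; DESeq2 and limma on log2(CPM + 1) called the same 3 as higher and 0 as lower, and voom with library quality weights 5 and 1. Log2 fold changes of the 16 were above 0 for 11 and below 0 for 5, with a median of 0.12, against -0.0016 over all tested genes. This tally depended on the correction for GC content. With least-squares offsets 6 were above 0 and 10 below, with a median of -0.10, against -0.044 over all tested genes. With robust offsets 9 were above 0 and 7 below, with a median of 0.04, against 0.0025 over all tested genes. The minimum over all 6 libraries admits a gene that is low in EGFP only if its Zac1 reads are high, which applies to Col2a1 and Col1a1 (5.67 and 9.67 reads per EGFP library on average), so these counts over the tested members are a description. Among all tested genes with a mean under 3 CPM, a limit set after the values were seen, 8.59% were called higher; 5 collagen genes were in that range, and Col2a1, Col11a2 and Col1a1 were among them.

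Col2a1 (GENCODE M21, GRCm38, chromosome 15, 97975602 to 98004695, minus strand) encodes the single chain of type II collagen, the main fibril of cartilage. It was read 34, 27 and 31 times in Zac1 replicates 4, 5 and 6, against 6, 3 and 8 times in EGFP replicates 1, 2 and 3, which is 2.12, 1.58 and 1.68 CPM in Zac1 and 0.399, 0.201 and 0.54 CPM in EGFP. Every Zac1 library was above every EGFP library. The log2 fold change was 2.21 (SE 0.37, edgeR adjusted p = 0.0029), a 4.63-fold rise. It remained past the threshold without any single library (adjusted p at most 0.0164) and with both corrections for GC content (0.0048 and 0.011).

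Col11a2 (chromosome 17, 34039437 to 34066685, plus strand) encodes a chain of type XI collagen, which forms mixed fibrils with type II. It had 43, 42 and 67 reads in Zac1 replicates 4, 5 and 6 and 16, 20 and 14 reads in EGFP replicates 1, 2 and 3, or 2.68, 2.46 and 3.64 CPM in Zac1 and 1.06, 1.34 and 0.945 CPM in EGFP. The groups did not overlap, and Zac1 replicate 6 was the highest library. The log2 fold change was 1.39 (SE 0.26, edgeR adjusted p = 0.0073). The call was lost without EGFP replicate 3 (adjusted p = 0.0571) or without Zac1 replicate 6 (0.0535). Its partner chain Col11a1 had 1 read in all Zac1 libraries and 0 in all EGFP libraries. The 250 bases before its RefSeq start (chr17:34038888-34039137, GRCm38.p6, plus strand, 5′ to 3′) are shown because Col11a2 alone of the 3 called genes has an entry in the promoter table. Capitals mark GC boxes (GGGCGG) and TATA boxes (TATAAA), read on either strand.
Col11a2: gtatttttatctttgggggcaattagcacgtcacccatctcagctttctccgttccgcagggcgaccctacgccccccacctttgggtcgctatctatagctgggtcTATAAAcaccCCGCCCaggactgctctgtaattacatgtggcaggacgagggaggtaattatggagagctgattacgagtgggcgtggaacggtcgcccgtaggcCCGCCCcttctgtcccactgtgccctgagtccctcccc
The stretch holds 2 GC boxes and 1 TATA box, and its GC content is 57.6%.

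Col1a1 (chromosome 11, 94936224 to 94953042, plus strand) encodes the main chain of type I collagen, the most abundant collagen of scar, bone and skin. Its reads numbered 28, 28 and 42 in Zac1 replicates 4, 5 and 6, against 7, 8 and 14 in EGFP replicates 1, 2 and 3. In CPM these are 1.74, 1.64 and 2.28 in Zac1 and 0.466, 0.537 and 0.945 in EGFP, with no overlap. The log2 fold change was 1.54 (SE 0.33, edgeR adjusted p = 0.0164). Without EGFP replicate 2 the adjusted p was 0.0653 and without Zac1 replicate 6 it was 0.1, past the threshold in neither case. Col1a2, which supplies the other chain of the usual type I trimer, was close to 0, with 2, 3 and 2 reads in Zac1 and 4, 0 and 0 reads in EGFP. Col3a1, the fibrillar partner of type I in scars, had 2 reads in all Zac1 libraries and 0 in all EGFP libraries. In bulk RNA a higher level in every cell and a high level in a few cells cannot be told apart, and this holds for each rise described here.

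The remaining fibrillar genes did not pass. Col27a1 had 72.2, 66.6 and 68.9 CPM in Zac1 and 69.3, 85.7 and 74.0 CPM in EGFP (log2 fold change -0.14, SE 0.07, edgeR adjusted p = 0.385), with overlapping groups. Col5a2, a chain of the type V collagen that limits fibril width, was at 0.704 ± 0.106 CPM in Zac1 and 0.559 ± 0.102 CPM in EGFP (0.32, SE 0.38, adjusted p = 0.74). It passed the minimum with a mean of 10.2 reads, while Col5a1, with 6, 12 and 19 reads in Zac1 and 6 reads in each EGFP library, missed it at 9.17. Col5a3 had 16 reads in all Zac1 libraries and 10 in all EGFP libraries, and Col24a1 had 2 in Zac1 and 1 in EGFP.

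**Figure D3:**
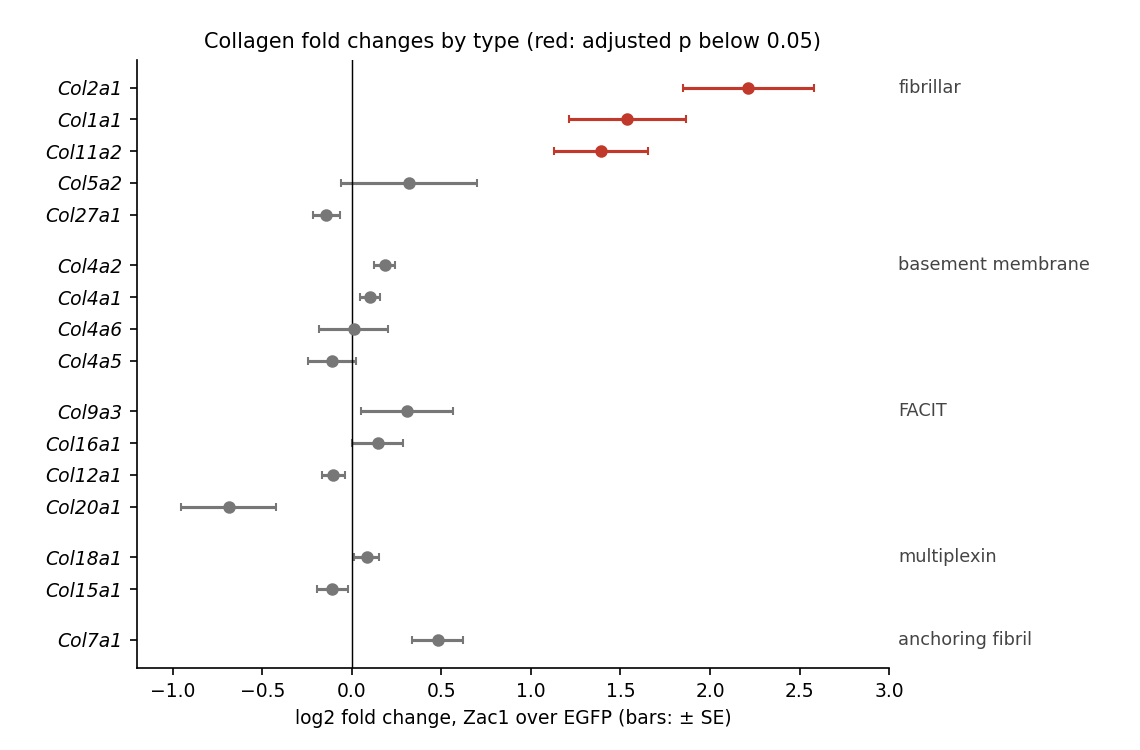
Log2 fold change of Zac1 over EGFP with its standard error for the 16 tested collagen genes, grouped by type; red marks an adjusted p below 0.05. The 3 red points, Col2a1, Col1a1 and Col11a2, are fibrillar and lie at 1.39 or more, and the other 13 genes lie between -0.69 and 0.48.

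Basement-membrane chains were abundant and none of the 4 tested was called. Col4a2 had 244, 259 and 284 CPM in Zac1, against 227, 243 and 223 CPM in EGFP, without overlap between the groups (log2 fold change 0.18, SE 0.06, edgeR adjusted p = 0.128). It passed without Zac1 replicate 4 (0.0154) and with voom quality weights (0.0197), and the sign turned with least-squares GC offsets (-0.12, adjusted p = 0.32). Col4a1 had 264, 286 and 292 CPM in Zac1 and 253, 273 and 259 CPM in EGFP, with overlap (0.10, SE 0.05, adjusted p = 0.383; -0.08 with least-squares GC offsets). The genes lie head to head on chromosome 8 (GRCm38; Col4a2 from 11312805 to 11449287 on the plus strand, Col4a1 from 11198423 to 11312826 on the minus strand), and their 5′ ends share 22 bases. That shared stretch, at chr8:11312805-11312826 on the plus strand (RefSeq, GRCm38.p6), is shown because both starts lie at its edges, and its capitals mark a GC box (GGGCGG).
Col4a2 and Col4a1: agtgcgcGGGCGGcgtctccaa
The ratio of Col4a2 to Col4a1 reads was 0.923, 0.906 and 0.97 in Zac1 replicates 4, 5 and 6, against 0.898, 0.89 and 0.861 in EGFP replicates 1, 2 and 3. All Zac1 ratios were above all EGFP ratios, by a small margin, and no test was made of this ratio.

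The X-linked pair Col4a5 and Col4a6, also head to head and 1308 bases apart, supplies chains of specialised basement membranes. Col4a5 was at 11.2 ± 1.79 CPM in Zac1 and 12.02 ± 1.17 CPM in EGFP (log2 fold change -0.11, SE 0.13, edgeR adjusted p = 0.744). Col4a6 was at 4.99 ± 1.03 CPM in Zac1 and 4.96 ± 1.012 CPM in EGFP (0.01, SE 0.19, adjusted p = 0.985; -0.09 and -0.02 with the least-squares and robust GC offsets). Both overlapped between groups. Col4a3 and Col4a4, the third such pair with starts 71 bases apart and chains known from the kidney filter, were near 0. Col4a3 had 4 reads in all Zac1 libraries and 3 in all EGFP libraries, and Col4a4 had 8 in Zac1 and 9 in EGFP.

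Col18a1 and Col15a1 did not pass. Col18a1 had 354, 389 and 410 CPM in Zac1 and 342, 401 and 346 CPM in EGFP (log2 fold change 0.08, SE 0.07, edgeR adjusted p = 0.603). Its sign turned with both GC corrections, to -0.22 (adjusted p = 0.0745) with the least-squares curve and -0.01 (0.962) with the robust curve. Col15a1 was at 26.9 ± 1.48 CPM in Zac1 and 29.0 ± 2.79 CPM in EGFP (-0.11, SE 0.09, adjusted p = 0.586). Both overlapped between groups, and these p-values do not show that their levels were equal.

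Col7a1, the chain of the anchoring fibrils that fasten skin to its basement membrane, had 21.7, 17.6 and 16.6 CPM in Zac1, against 16.6, 12.4 and 11 CPM in EGFP. The lowest Zac1 library lay just above the highest EGFP library, replicate 1. Its log2 fold change was 0.48 (SE 0.14, edgeR adjusted p = 0.0894), not past the threshold. Without EGFP replicate 1 it passed (0.67, adjusted p = 0.00579), as it did with voom quality weights (0.0102); with the GC corrections the adjusted p was 0.261 and 0.639. Groups were also free of overlap upward for Col1a1, Col2a1, Col4a2 and Col11a2, 5 of 16 in all, where 11.9% of all tested genes were. Col12a1 was the 1 gene with every Zac1 library below every EGFP library (8.75% of all tested genes were), at 38.6, 37.6 and 39.1 CPM in Zac1 and 42.4, 41.1 and 40.4 CPM in EGFP (-0.10, SE 0.07, adjusted p = 0.483).

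Among the other FACIT genes, Col20a1 had 2.49, 3.35 and 4.56 CPM in Zac1, against 3.39, 7.25 and 6.28 CPM in EGFP. EGFP replicate 1 was low and fell inside the Zac1 range. The log2 fold change was -0.69 (SE 0.26, edgeR adjusted p = 0.204), and Col20a1 passed as lower without EGFP replicate 1 (-0.95, adjusted p = 0.0158) and with voom quality weights (0.0393). Its exons share 79 bases on the same strand with the transcript BX649560.1, which had 58 to 72 reads in Zac1 and 55 to 70 in EGFP. Col16a1 was at 7.16 ± 0.51 CPM in Zac1 and 6.48 ± 0.973 CPM in EGFP (0.14, SE 0.14, adjusted p = 0.685; -0.18 with least-squares GC offsets). Col9a3, a chain of the type IX collagen that coats type II fibrils, was at 1.83 ± 0.326 CPM in Zac1 and 1.48 ± 0.207 CPM in EGFP (0.31, SE 0.26, adjusted p = 0.613).

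The 28 genes below the minimum were mostly close to 0. Col22a1 and Col25a1 had 0 reads in every library, which allows up to 3 reads over the libraries together for each. A read was found for 37, 33 and 36 of the 44 collagen genes in Zac1 replicates 4, 5 and 6, and for 25, 28 and 26 in EGFP replicates 1, 2 and 3; over all genes it was found for 17272 to 17988 in Zac1 and 16545 to 16664 in EGFP, and the Zac1 libraries were deeper. Of the 26 untested collagen genes with a read, summed CPM was higher in Zac1 for 23 and lower for 3, where 58.4% of all untested genes with a read were higher. Many of these sums differ by 1 or 2 reads.

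Col6a2, Col9a2 and Col17a1 stood out from the other genes below the minimum, and were picked out after their values were seen. Col6a2 encodes a chain of type VI collagen, which forms beaded filaments with the products of Col6a1 and Col6a3. It had 16, 26 and 15 reads in Zac1 replicates 4, 5 and 6, against 0, 2 and 0 in EGFP replicates 1, 2 and 3, and its mean of 9.83 reads missed the minimum narrowly. The ratio of summed reads per library size was 24.8 (95% Clopper-Pearson interval 6.55 to 209, counting error only). Col6a1, 85161 bases away on the same strand, had 8, 7 and 4 reads in Zac1 and 1, 5 and 2 reads in EGFP, a ratio of 2.06 (0.862 to 5.45). Col6a3 had 1, 4 and 4 reads in Zac1 and 4, 1 and 2 reads in EGFP, and the groups overlapped for both.

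Col9a2, a second chain of type IX collagen, had 13, 9 and 10 reads in Zac1 and 0, 1 and 0 reads in EGFP, a ratio of 27.8 (95% interval 4.64 to 1132). The first chain, Col9a1, had 4 reads in all Zac1 libraries and 3 in all EGFP libraries. Col17a1, a transmembrane collagen of the hemidesmosome, had 4, 5 and 8 reads in Zac1 and 0 reads in each EGFP library. With 3 reads set for the EGFP group the ratio was 4.92, which leaves out counting error in Zac1. With a minimum mean of 3 reads, 22 collagen genes were tested and 5 rose, where 3.75% of all genes tested did (0.652% fell, and 0 collagen genes): Col2a1, Col11a2, Col1a1, Col6a2 (edgeR adjusted p = 0.00254) and Col9a2 (0.0067). Col6a2 and Col9a2, at 0.667 and 0.333 reads per EGFP library on average, passed that minimum only through their Zac1 reads, so this count is a description too. At the same minimum the stellate marker Cygb (edgeR adjusted p = 0.0108) and the macrophage marker Csf1r (0.0184) were also higher in Zac1. Both had 0 reads in each EGFP library and passed that minimum only through their Zac1 reads. Of the other markers it admitted, Eng, Pecam1 and Gfap were above 0 and Fgb, Ptprc and Tagln below 0. None of those passed (edgeR adjusted p 0.305 to 0.98). The part of such markers in the rises of collagen genes was not tested. The bases before the start of Col6a2 (chr10:76623631-76623880, minus strand) and Col17a1 (chr19:47692095-47692292, minus strand, up to the annotated first exon) are shown to set a pair of genes nearly silent in EGFP beside Col11a2, with the same capitals.
Col6a2: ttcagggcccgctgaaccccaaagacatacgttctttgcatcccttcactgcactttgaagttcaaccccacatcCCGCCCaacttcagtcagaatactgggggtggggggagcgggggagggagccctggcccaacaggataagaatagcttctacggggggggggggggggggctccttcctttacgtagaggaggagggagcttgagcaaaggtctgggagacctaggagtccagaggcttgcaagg
Col17a1: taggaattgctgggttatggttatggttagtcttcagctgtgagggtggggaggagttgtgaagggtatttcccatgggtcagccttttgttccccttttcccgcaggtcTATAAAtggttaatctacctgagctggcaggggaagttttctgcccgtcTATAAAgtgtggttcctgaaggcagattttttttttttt
The Col6a2 stretch holds 1 GC box and no TATA box, and the Col17a1 stretch holds 2 TATA boxes and no GC box. The Col6a2 stretch lies before the outer of its RefSeq starts. The window of 300 bases at its inner start, not shown, holds 3 GC boxes and no TATA box. So does the window of Col9a2, also not shown. Over all untested genes with a read, 1.54% had at most 3 reads in EGFP and at least 17 in Zac1, limits set after seeing the reads of these 3 genes.

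**Figure D4:**
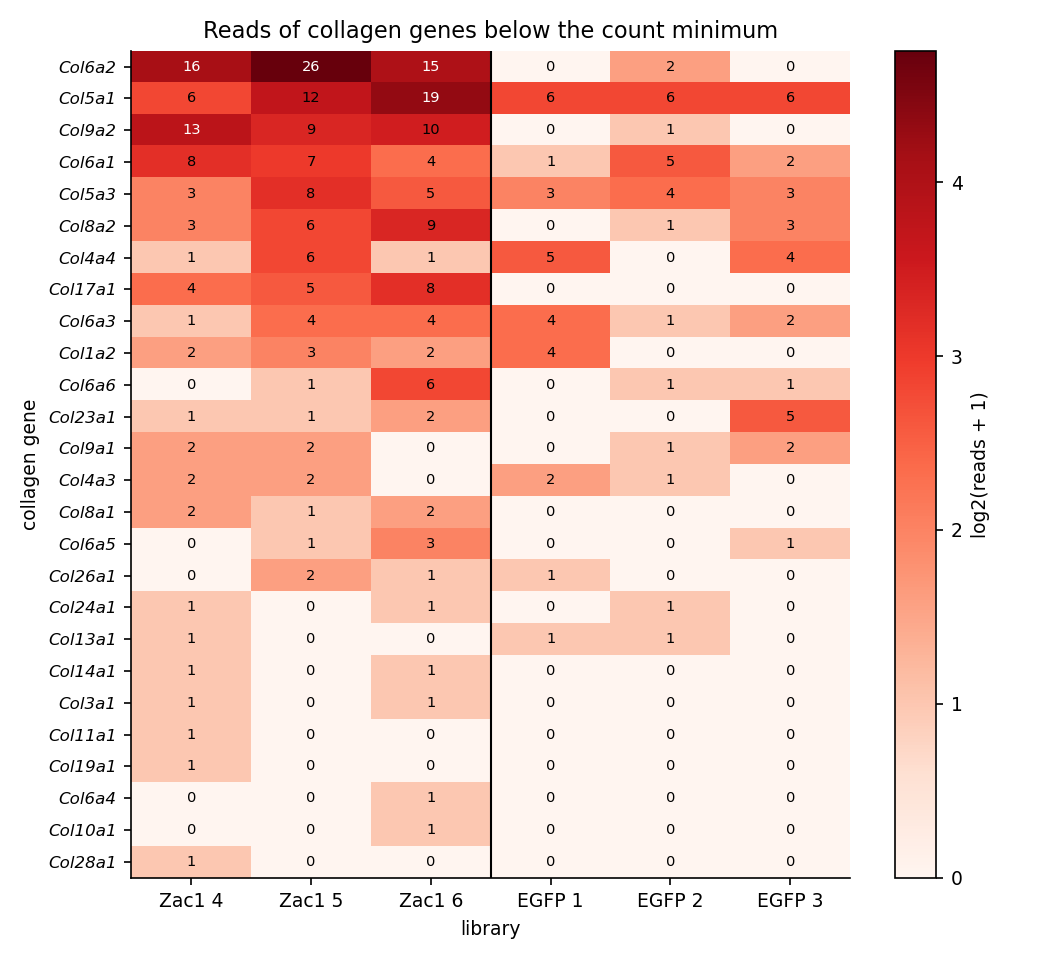
Reads per library of the 26 collagen genes that had a read but a mean below 10, with Zac1 libraries left of the line and EGFP libraries right; shading is log2(reads + 1). Col6a2 (15 to 26 reads in Zac1), Col9a2 (9 to 13) and Col17a1 (4 to 8) have at most 2 reads in any EGFP library.

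Of the other untested genes, Col8a2, a short-chain collagen of endothelial basement membranes, had 18 reads in all Zac1 libraries and 4 in all EGFP libraries (ratio 3.91, 95% interval 1.29 to 15.9; edgeR adjusted p = 0.255 with a minimum mean of 3 reads). Col8a1, its partner, had 5 reads in Zac1 and 0 in EGFP, and Col10a1 of hypertrophic cartilage had 1 read in Zac1 and 0 in EGFP. Col6a5 had 4 reads in Zac1 and 1 in EGFP, Col6a6 had 7 in Zac1 and 2 in EGFP, and Col6a4 had 1 in Zac1 and 0 in EGFP. The transmembrane genes Col13a1 and Col23a1 had 1 and 4 reads in Zac1 and 2 and 5 reads in EGFP. The FACIT genes Col14a1 and Col19a1 had 2 and 1 reads in Zac1 and 0 in EGFP. Col26a1 had 3 reads in Zac1 and 1 in EGFP, and Col28a1 had 1 in Zac1 and 0 in EGFP.

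The RefSeq promoter table (GRCm38.p6) held 35 of the 44 genes, in 38 windows of 250 bases before and 50 after a start; Col1a1, Col2a1, Col4a3, Col5a2, Col9a3, Col12a1, Col14a1, Col22a1 and Col26a1 had no entry. Both strands were searched, and matches of different motifs may overlap. GGGGCCCC, the core of the G- and C-rich site described for Zac1, was found in 2 of 38 collagen windows (5.26%). It was found in 1.08% of 32851 windows of all genes. The 2 collagen windows were those of Col4a2, not called (edgeR adjusted p = 0.128), and Col13a1, with 1 read in Zac1 and 2 in EGFP. The windows of Col11a2, Col6a2, Col9a2 and Col17a1 held no match. GGGCGG was in 23 collagen windows (60.5%), against 35.7% of all, and TATAAA in 5 (13.2%), against 13.6% of all. These are matches of letters, not sites.

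Collagen transcripts are rich in G and C, and fold changes in these libraries were examined with and without a correction for it. Of the 16 tested collagen genes 15 had a longest transcript with a GC content above the median of all tested genes (49.4%), and the median of the 16 was 59.1%. It was 62.2% for Col2a1, 62.9% for Col11a2 and 58.9% for Col1a1. With offsets that remove the trend of fold change on GC content by a least-squares curve, Col2a1, Col11a2 (edgeR adjusted p = 0.0409) and Col1a1 (0.0364) were still higher and Col27a1 became lower (log2 fold change -0.40, adjusted p = 0.00786); over all genes 277 were then higher and 338 lower, against 378 and 81 without offsets. With a robust curve the same 3 collagen genes were higher and 0 lower, and over all genes 316 were higher and 44 lower.

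**Figure D5:**
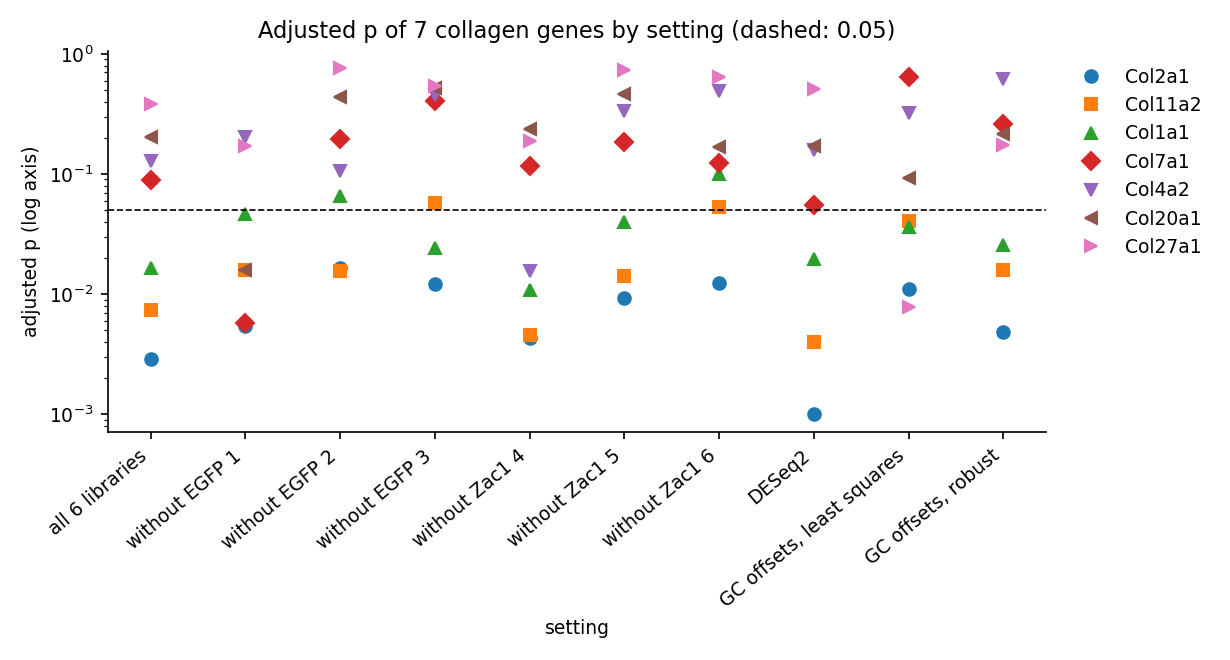
Adjusted p (log axis) of 7 collagen genes with all 6 libraries, without each library in turn, with DESeq2 and with GC offsets; the dashed line is the threshold of 0.05. Col2a1 stays below the line in every setting shown, Col11a2 and Col1a1 cross it when single libraries are left out, and Col7a1, Col4a2, Col20a1 and Col27a1 cross it downward in single settings.

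Among genes that make, export, process, bind and degrade collagen, Creb3l1 and Loxl4 rose and Mrc2 fell. These are 2 higher and 1 lower of 51 tested, where 3.12% of all tested genes were higher and 0.668% lower. Counts this small allow no comparison with those shares. Of 20 genes for the modification and folding of the chains 18 were tested; edgeR, DESeq2 and limma called 0 of them, voom called 1 as higher, and 1 had an unadjusted p under 0.05. P4hb, the shared subunit of prolyl 4-hydroxylase, was the most abundant, at 1427 ± 18.6 CPM in Zac1 and 1491 ± 32.0 CPM in EGFP (log2 fold change -0.06, edgeR adjusted p = 0.492). Serpinh1, the collagen chaperone HSP47, was at 228 ± 18.5 CPM in Zac1 and 214 ± 8.16 CPM in EGFP (0.09, adjusted p = 0.506). Of 10 genes of collagen export, all tested, 1 passed: Creb3l1, a membrane-bound transcription factor known to drive collagen secretion in bone, rose. It had 5.97, 5.58 and 5.05 CPM in Zac1, against 3.53, 3.56 and 3.31 CPM in EGFP, without overlap (0.67, SE 0.16, adjusted p = 0.0275). That call was lost with DESeq2 (0.064), with both GC corrections (0.0676 and 0.166) and without any of EGFP 2, EGFP 3, Zac1 5 or Zac1 6 (0.0595 to 0.13). Sec31a, a coat protein of export vesicles and the most abundant of that list, was at 310 ± 2.78 CPM in Zac1 and 328 ± 4.62 CPM in EGFP (-0.08, adjusted p = 0.411).

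Of 13 genes of procollagen processing and crosslinking 8 were tested and 1 rose, Loxl4, a lysyl oxidase-like enzyme, with 76.2, 88.9 and 98.7 CPM in Zac1, against 71.5, 71.5 and 69.6 CPM in EGFP (log2 fold change 0.31, edgeR adjusted p = 0.0428). It did not pass with limma (0.0526), the GC corrections (0.133 and 0.284) or without any single library but Zac1 4 (0.051 to 0.228). Bmp1, a procollagen C-proteinase, was at 154 ± 3.87 CPM in Zac1 and 151 ± 4.26 CPM in EGFP (0.03, adjusted p = 0.86). Of 12 collagen receptors 8 were tested and 1 fell, Mrc2, an endocytic receptor that takes up collagen, with 1.8, 2.11 and 2.12 CPM in Zac1 and 3.93, 5.17 and 5.13 CPM in EGFP (-1.23, SE 0.20, adjusted p = 0.00213). Itgb1, the shared beta chain of collagen-binding integrins, was at 1090 ± 84.4 CPM in Zac1 and 1106 ± 64.8 CPM in EGFP (-0.02, adjusted p = 0.9). Of 15 collagenases, gelatinases, cathepsins and their inhibitors 7 were tested; edgeR, DESeq2 and limma called 0, voom called 2 as higher, and 2 had an unadjusted p under 0.05. Ctsl, the most abundant, was at 771 ± 16.2 CPM in Zac1 and 738 ± 18.33 CPM in EGFP (0.06, adjusted p = 0.52), and Mmp1a, Mmp2, Mmp8 and Mmp16 had 0 reads in every library.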

How the data were processed

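Poly(A) RNA of 6 AML12 libraries was sequenced. Gene-level read counts were deposited by the authors as a single table with 1 column per library. FastQC, STAR, HTSeq and DESeq2 are named in the submitters' processing notes; of their versions, the genome build and the strand setting of the counting, none is given in the sources used here. The library kit was directional, per the labels' protocols. Although the deposited name speaks of normalized values, the table was treated as raw counts, since every value is whole and library totals differ (14801240 to 18302538).

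Symbols came from GENCODE M21 (GRCm38), which matched 49326 of 49585 IDs. Genes with a mean of at least 10 reads were tested with edgeR 4.0.16 in R 4.3.3 (TMM scaling, glmQLFit and glmQLFTest, prior count 0.125, two-sided, Benjamini-Hochberg over all genes, threshold 0.05). The standard error is the log2 fold change divided by the square root of F. CPM uses TMM-scaled library sizes; CPM per kb uses the longest transcript. Intervals of read ratios are exact (95%) and cover counting error only. Bounds set 3 reads for the EGFP group and leave out counting error in Zac1. Alternatives were other scalings, filters, DESeq2 1.42.0, limma 3.58.1, voom, robust variance, GC offsets (loess, span 0.5) and leaving out each library; leaving out EGFP 1 and Zac1 4 together was added after seeing the data. Replicate pairs differed by more than sampling noise (chi-square per degree of freedom 2.2 to 8.22). The fit was tested on simulated data.

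The members and gene lists were chosen with earlier results of these data known. Printed promoter bases stop before the annotated first exon, apart from the 22 bases shared by Col4a1 and Col4a2. Every collagen gene with a mean of at least 10 reads is named with values and the others by reads. Of the other lists, genes past the test and the most abundant member are named. The hepatocyte and bile-duct lists are exceptions, as their most abundant member is not named. Genes of these lists without a read in any library are named too, as are the markers that the lower minimum of mean reads admitted. Fbln2, Postn and Lyz2 are also named. Serpinh1, Cygb, Des, Pdgfra, Pdgfrb and Csf1r were added after their values were seen. Reads of genes with overlapping exons may not be told apart. Results for 1 gene of the marker lists are not reported here.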

Additional observations from a re-analysis of the deposited data

How the results depend on the processing

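The 3 higher collagen genes were the same with median-of-ratios, upper-quartile and total-count scaling (with and without Plagl1), DESeq2, limma on log2(CPM + 1), robust variance and both GC offsets. The number higher was 8 with no filter on low counts, 5 with a mean of at least 3 reads, 5 with voom quality weights and 6 without EGFP 1 and Zac1 4 together. It was 0 with a mean of at least 50 reads, where none of the 3 can be tested. Without each library in turn it ran from 1 (without Zac1 6, Col2a1) to 5 (without EGFP 1, with Col6a2 and Col7a1 added). The number lower was 1 with no filter, 1 with voom weights (Col20a1 in both), 1 with least-squares GC offsets (Col27a1), 2 without EGFP 1 and Zac1 4 together, and 0 to 1 without each library. Over all genes 459 changed. This was 979 with no filter, 241 with a mean of at least 50 reads, 1297 with voom weights and 1461 without EGFP 1 and Zac1 4 together. Without each library it was 206 (without Zac1 5) to 963 (without Zac1 4), and also moved by over 1.5 times without EGFP 3 (236) or Zac1 6 (221). The split into higher and lower calls was 378 and 81 in the main comparison, 277 and 338 with least-squares GC offsets, 797 and 500 with voom weights, and 853 and 608 without EGFP 1 and Zac1 4. The fits with no filter and without both libraries took nearly all of each gene's variance from the pooled estimate. The cause of these moves was not tested, apart from the number of genes tested under each filter. Col2a1, Col11a2 and Col1a1 were above 0 wherever they were tested, while Col4a2 (-0.12), Col4a1 (-0.08), Col4a6 (-0.09), Col16a1 (-0.18) and Col18a1 (-0.22), none called with all libraries, fell below 0 with least-squares GC offsets, Col18a1 and Col4a6 also with robust ones. Under the least-squares offsets the median log2 fold change over all tested genes was -0.044. No paired analysis was possible because the groups share no replicate numbers. At 3 to 42 reads per library, Col1a1 and Col2a1 are limited by depth, as are the 28 untested genes.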
